A study of Mus musculus with 26 samples.

Results

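The 10 transcripts described here encode transporters, channels, keratins and secreted proteins that are known from the retinal pigment epithelium (RPE) and the ciliary epithelium: Slc6a20a, Slc16a8, Clic6, Car12, Ptgds, Krt8, Krt18, Cpxm2, Best1 and Kcnj13. They are 10 of the 37991 genes counted and were chosen from the comparison of UNC1999-treated retinas with their controls, so their values in that comparison are given only as a description. All animals were rd10 mice (B6.CXB1-Pde6brd10/Jrd10 in the labels), which carry a mutation of the rod phosphodiesterase gene Pde6b, lose their rods early, and the libraries used here include no mice without the mutation. Mice received intraperitoneal injections from postnatal day (PN) 9 and tissue was taken at PN24. The methods of the study name daily injections for all inhibitors. Its results section gives DZNep daily at first, then every second day at a lower dose. Whole retinas came from 3 controls and 3 mice given the EZH2 inhibitor UNC1999, 4 controls and 2 mice given the EZH2 inhibitor DZNep, 2 controls and 2 mice given the G9A/GLP inhibitor UNC0642, and 3 controls and 3 mice given the HDAC inhibitor Romidepsin. Rods were sorted by EGFP fluorescence from 2 controls and 2 mice given the LSD1 inhibitor GSK2879552. These mice came from a cross of rd10 with Nrl-EGFP animals and were homozygous for both, and the Nrl promoter limits EGFP to the rod lineage. Controls were injected with saline, whereas the methods of the study name a vehicle with DMSO, PEG300 and Tween for UNC1999, so vehicle and drug cannot be told apart in that experiment.

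The RPE is a single layer of pigmented cells between the photoreceptors and the choroid. It takes up lactate and other metabolites that photoreceptors release, moves ions and water toward the choroid, regenerates the visual chromophore and engulfs shed outer segments, and the double-layered ciliary epithelium at the edge of the retina secretes the aqueous humour. Neither epithelium belongs to the neural retina, but fragments of both can stay attached when a retina is dissected, and in whole tissue a change in the number of cells of a type and a change in the RNA per cell cannot be told apart.

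Counted reads ran from 13732959 to 36354094 in the 22 retinas and from 7289460 to 19864491 in the 4 sorted-rod libraries. Levels are given as CPM, the counts of a gene relative to the total of its library, scaled by the TMM factors of edgeR, once over all retinas and separately over the sorted rods, which were made with another library kit. A count of 3 corresponded to 0.0897 to 0.229 CPM in the retinas. A gene was called when the adjusted p-value of edgeR's quasi-likelihood test was under 0.05 and the log2 fold change was beyond 1 in either direction. Replicates are those of the labels, which do not say how many animals stand behind a library, and p-values measure the spread between these libraries. DZNep replicate 2 stood apart, with 85.6 CPM summed over 10 lens transcripts where every other retina had at most 6.99 CPM. After DZNep, the members and the visual cycle, melanin and lens lists are given with and without it. The other lists and the correlations between libraries are given only with it.

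Among the members, levels per kilobase of exon differed widely in the 12 control retinas. Krt18 had the highest median, 65.4 CPM per kb (range 46.7 to 141), and Ptgds the next, 55.5 CPM per kb (25.4 to 101), and these ranges overlapped. The other members had medians between 0.433 CPM per kb for Best1 and 2.46 CPM per kb for Slc16a8. Best1, the bestrophin chloride channel of the RPE, was the lowest, with 8 to 47 counts in a retina library, so that its values carry the largest counting error.

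In the UNC1999 experiment, whose values chose the members, all treated libraries lay above all controls for 9 of the 10 members, where 14.5% of all tested genes did so, and 8 members were called higher, where 0.298% of all genes were. Nothing follows from these counts, since the members were picked for them. The median log2 fold change of the members was 1.72. Slc6a20a, a transporter of proline and related imino acids, was measured at 3.13, 3.72 and 4.29 CPM in the controls and at 16.9, 18.9 and 18.6 CPM after UNC1999. Car12, a membrane-bound carbonic anhydrase, was at 6.15, 4.11 and 3.99 CPM in the controls and at 20.2, 17.6 and 16.2 CPM after UNC1999. For both genes no treated library came near a control. Krt18 had the smaller difference of the keratin pair, with 153, 145 and 197 CPM in controls and 274, 248 and 277 CPM in treated retinas, and did not pass either threshold of a call. Best1 went against the name of the group: its controls were at 0.796, 0.576 and 0.599 CPM and its treated libraries at 1.04, 0.769 and 0.735 CPM, which overlapped, with a log2 fold change of 0.35 ± 0.29 (SE). Best1 is therefore a member by its known site of expression and not by a measured rise.

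**Figure D1:**
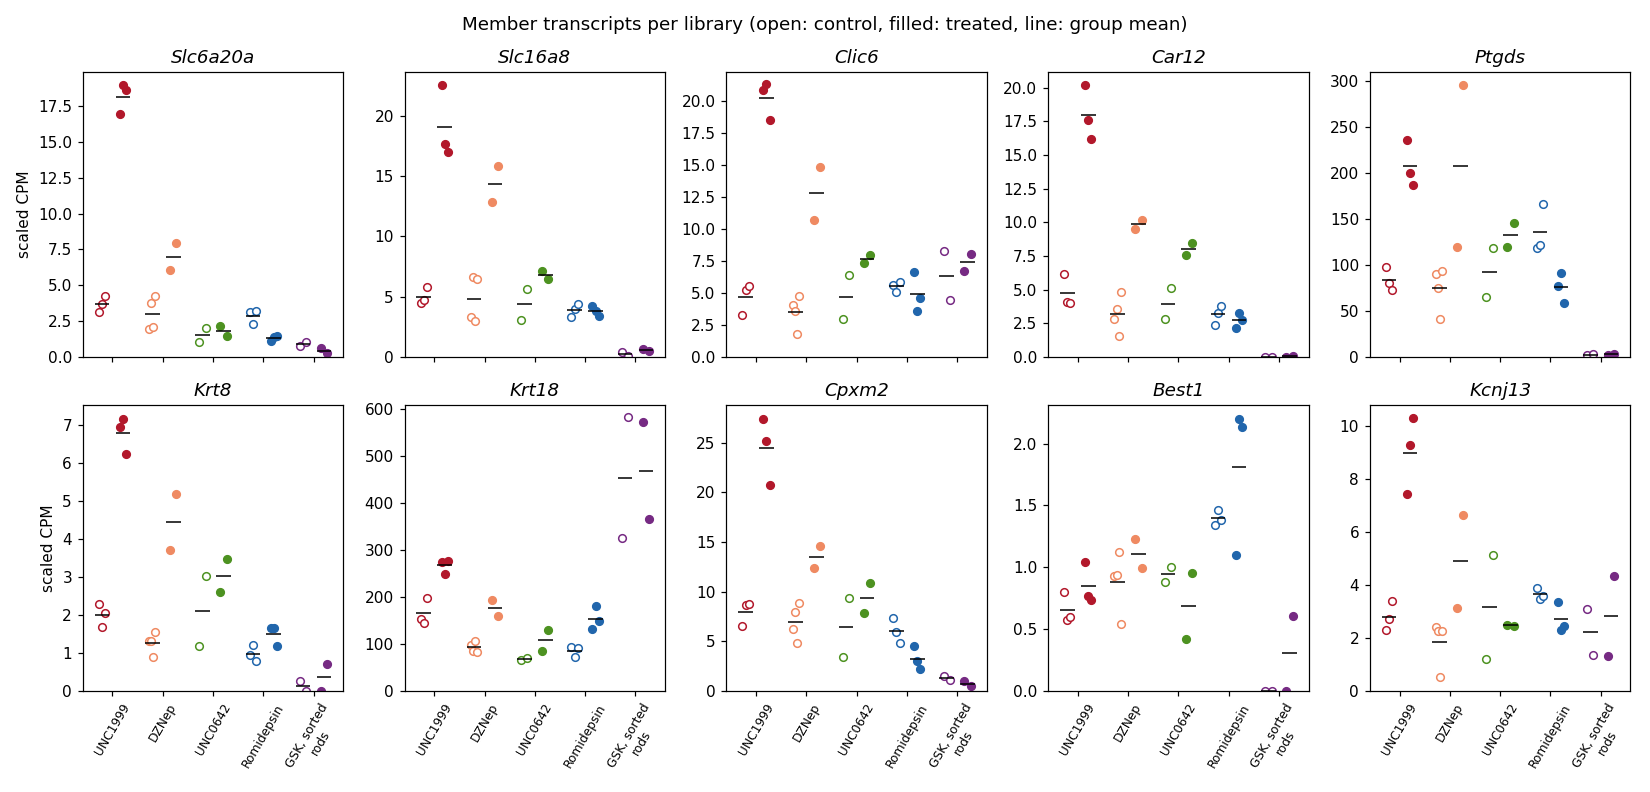
Level of each member in each library (y axis, scaled CPM on a linear scale from 0, one panel per gene) by experiment (x axis), with open points for control and filled points for treated libraries and a line at the group mean. The UNC1999 and DZNep points lie above their controls for all members but Best1, the Romidepsin points lie below all their controls for 4 members, and Krt18 is higher in sorted rods, which were scaled separately, than in any retina.

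DZNep was given in an experiment with its own controls, in another library series than UNC1999, and the rule that chose the members uses no DZNep value, although the results of all experiments were known when they were chosen. After DZNep, 6 of the 10 members were called higher, where 1.02% of the 16477 genes tested were, and none was called lower. Called were Slc6a20a, Slc16a8, Car12, Clic6, Krt8 and Ptgds, with log2 fold changes from 1.16 to 1.81. Krt18 and Cpxm2 passed the adjusted p-value but not the fold threshold, and Kcnj13 and Best1 passed no adjusted p-value. Both treated retinas were above all 4 controls for 9 members, Best1 being the exception, where 25.5% of all genes were so ordered. The median log2 fold change was 1.38 over the members and −0.00057 over all genes tested.

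Of the transporters, Slc6a20a (chromosome 9, 123545240 to 123588003 in NCBIM37, minus strand) was at 1.96, 3.78, 2.11 and 4.27 CPM in the controls and at 6.04 and 7.92 CPM after DZNep. The groups did not overlap, and the transcript rose 2.24-fold (log2 fold change 1.16 ± 0.30 SE, adjusted p = 0.0259). Slc16a8 (chromosome 15, 79081444 to 79085191, minus strand), the monocarboxylate transporter with which the RPE passes lactate on to the choroid, had controls at 3.31, 6.63, 3.00 and 6.44 CPM. Its DZNep libraries were at 12.9 and 15.8 CPM, both above every control. The rise was 2.90-fold (log2 fold change 1.54 ± 0.29, adjusted p = 0.0075). Car12 (chromosome 9, 66561493 to 66614652, plus strand), which hydrates carbon dioxide outside the cell, was at 2.80, 3.59, 1.59 and 4.85 CPM in controls and 9.54 and 10.2 CPM after DZNep. The lower treated library was above the highest control, and the transcript rose 3.02-fold (log2 fold change 1.59 ± 0.31, adjusted p = 0.0082).

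Among the channels, Clic6 (chromosome 16, 92485981 to 92541488, plus strand), of the family of intracellular chloride channel proteins, rose most. Its controls were at 4.05, 3.64, 1.78 and 4.77 CPM and its treated libraries at 10.7 and 14.9 CPM, without overlap. The log2 fold change was 1.81 ± 0.29 and the adjusted p = 0.0035. Kcnj13 (chromosome 1, 89282938 to 89291304, minus strand), an inward rectifier potassium channel of the apical RPE membrane, was at 2.42, 2.24, 0.516 and 2.25 CPM in controls and at 3.14 and 6.63 CPM after DZNep. The treated libraries lay above the controls but differed from each other by more than the lower of them differed from any control, and the log2 fold change of 1.32 ± 0.48 did not pass (adjusted p = 0.0783). Of the exon bases of Kcnj13, 49.1% are shared with Gigyf2 on the opposite strand, a transcript at 118 CPM on average in control retinas. Whether reads were counted by strand is not given in the sources used here, so the level of Kcnj13 is uncertain. Best1 (chromosome 19, 10059664 to 10076123, minus strand) was at 0.932, 0.933, 1.13 and 0.543 CPM in controls and at 1.23 and 0.991 CPM after DZNep. The groups overlapped, and the log2 fold change was 0.36 ± 0.32 (adjusted p = 0.457).

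The promoters of both channels that did not pass are shown because each holds a match, in capitals, to a short motif known from RPE or photoreceptor genes. They are the RefSeq stretches from 250 bases before to 50 after the gene start (build GRCm38.p6, printed 5′ to 3′ on the strand of the gene), at chr1:87394680-87394979 for Kcnj13 and chr19:10001584-10001883 for Best1, both on the minus strand.
Kcnj13: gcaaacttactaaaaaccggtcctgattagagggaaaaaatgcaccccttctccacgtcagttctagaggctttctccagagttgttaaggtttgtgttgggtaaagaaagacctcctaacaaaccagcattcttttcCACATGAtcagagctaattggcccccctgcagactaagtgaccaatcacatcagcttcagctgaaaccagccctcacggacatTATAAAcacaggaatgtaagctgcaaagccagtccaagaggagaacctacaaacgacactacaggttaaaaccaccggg
Best1: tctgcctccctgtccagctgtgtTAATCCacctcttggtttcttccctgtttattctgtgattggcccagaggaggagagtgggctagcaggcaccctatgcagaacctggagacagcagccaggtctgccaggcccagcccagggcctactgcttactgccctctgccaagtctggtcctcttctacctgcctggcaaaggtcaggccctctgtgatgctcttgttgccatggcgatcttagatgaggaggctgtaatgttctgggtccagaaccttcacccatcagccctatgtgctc
In Best1 the capitals mark TAATCC, a core bound by factors of the OTX and CRX type. In Kcnj13 the first capitals mark TCATGTG on the reverse strand (the M-box bound by MITF, printed as its reverse complement), and the second mark TATAAA. Both strands were searched in the promoters of the 9 members with an entry, Clic6 having none. Over 32851 promoters, 7.06% held TAATCC and 3.77% held TCATGTG, and among the members each was found in 1. TATAAA was found in Kcnj13 and Krt8 and in 13.6% of all promoters, GGGCGG in Slc6a20a, Car12 and Cpxm2 and in 35.7% of all, and CACGTG in no member and in 7.15% of all. Such matches describe the letters in this window alone.

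Krt8 and Krt18 encode the type II and type I keratins that pair to form the filaments of simple epithelia, and their gene starts lie 23874 bases apart on opposite strands of chromosome 15. Krt8 (101827142 to 101834773, minus strand) was at 1.30, 1.31, 0.891 and 1.55 CPM in controls and at 3.71 and 5.18 CPM after DZNep. The treated libraries lay clear of the controls, and Krt8 rose 3.41-fold (log2 fold change 1.77 ± 0.25, adjusted p = 0.0019). Krt18 (101858647 to 101862457, plus strand) was at 96.8, 84.9, 105 and 81.5 CPM in controls and at 192 and 159 CPM after DZNep. It had the smallest adjusted p of the members (0.00097) at a log2 fold change of 0.93 ± 0.10, just under the fold threshold. Although the proteins pair, their transcripts were far from equal: Krt18 exceeded Krt8 30.0- to 162-fold per kilobase of exon in the 22 retinas, with a median of 80.5-fold. The promoters of the pair are shown as well, again from RefSeq in GRCm38.p6. They lie at chr15:102004293-102004592 (minus strand) for Krt8 and chr15:102027966-102028265 (plus strand) for Krt18.
Krt8: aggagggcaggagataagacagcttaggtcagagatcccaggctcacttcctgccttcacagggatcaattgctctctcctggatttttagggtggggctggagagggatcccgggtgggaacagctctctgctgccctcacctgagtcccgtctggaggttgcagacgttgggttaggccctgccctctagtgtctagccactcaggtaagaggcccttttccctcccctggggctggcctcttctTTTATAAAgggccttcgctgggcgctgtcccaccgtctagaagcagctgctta
Krt18: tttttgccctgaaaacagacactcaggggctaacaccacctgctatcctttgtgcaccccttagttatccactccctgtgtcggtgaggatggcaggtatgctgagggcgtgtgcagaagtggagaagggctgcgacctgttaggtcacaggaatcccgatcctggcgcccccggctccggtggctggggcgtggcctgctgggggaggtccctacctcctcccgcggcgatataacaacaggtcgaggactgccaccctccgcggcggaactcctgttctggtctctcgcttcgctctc
The capitals in Krt8 mark 2 overlapping matches of TATAAA, 1 on each strand, at −3 and −1 from the gene start. Krt18 held none of the 5 motifs searched. Whether these letters bear on the difference between the Krt18 and Krt8 transcripts was not tested.

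Of the secreted proteins, Ptgds (chromosome 2, 25322229 to 25325566, minus strand), the lipocalin-type prostaglandin D synthase, was at 89.9, 75.4, 41.9 and 93.0 CPM in controls. After DZNep it was at 120 CPM in replicate 1 and at 295 CPM in replicate 2, the highest value of all 22 retinas. Both were above the controls, and Ptgds rose 2.71-fold (log2 fold change 1.44 ± 0.35, adjusted p = 0.0206). Cpxm2 (chromosome 7, 139234499 to 139346422, minus strand), of the carboxypeptidase X family, was at 6.24, 7.98, 4.83 and 8.84 CPM in controls and at 12.3 and 14.6 CPM after DZNep, without overlap. Its log2 fold change of 0.92 ± 0.21 had an adjusted p of 0.0151.

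**Figure D2:**
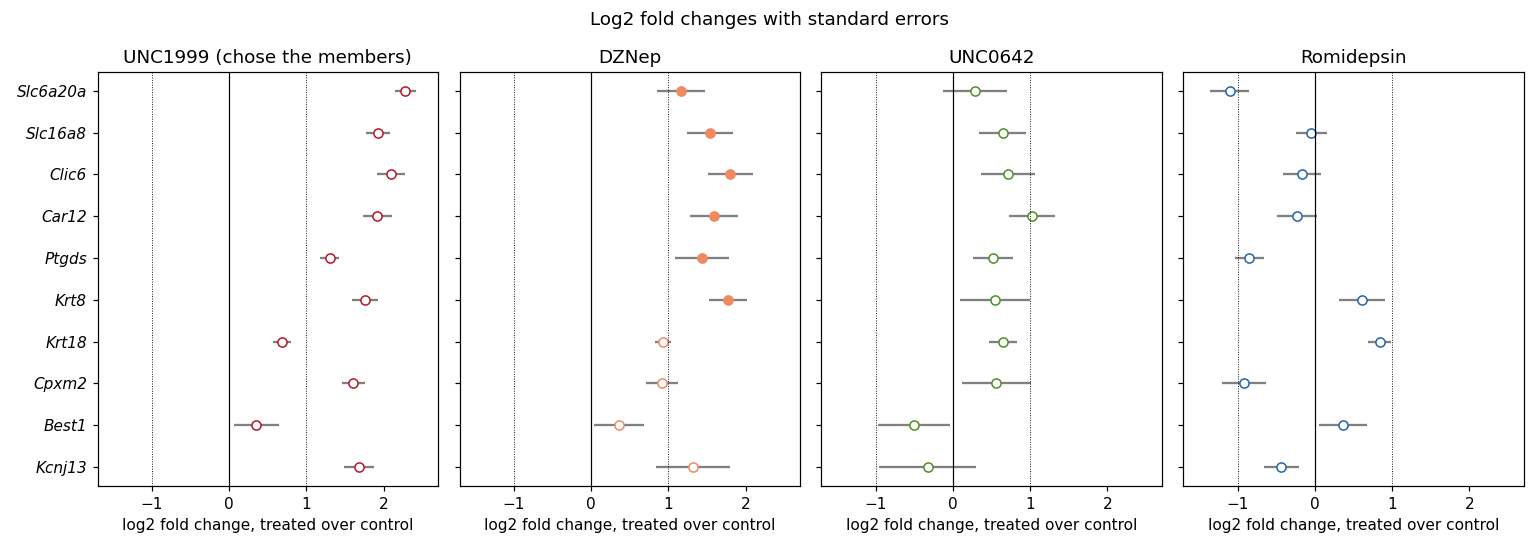
Log2 fold change of each member, treated over control (x axis, points, with bars of 1 standard error), in the 4 retina experiments (panels). Dotted lines mark a log2 fold change of 1 in either direction, filled points the members called by edgeR's quasi-likelihood test, and the UNC1999 values, which chose the members, are all drawn open. The 6 filled points are in the DZNep panel.

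Without DZNep replicate 2, the library with lens transcripts, the lone treated retina is assumed to vary like the controls. Then 5 members were called, and the median log2 fold change of the members was 1.01. Slc16a8, Clic6, Car12 and Krt8 were called with and without it, Krt18 was called only without it (log2 fold change 1.05), and Slc6a20a (0.98, adjusted p = 0.133) and Ptgds (0.66, adjusted p = 0.213) were no longer called. Without DZNep replicate 1, 4 members were called (Slc16a8, Clic6, Ptgds and Krt8) and the median was 1.67. Control replicate 3 had the lowest value of the 4 controls for 7 members and the highest for 2, and without it 5 members were called, Slc6a20a not passing (adjusted p = 0.0595). Slc16a8, Clic6 and Krt8 were called in each of these 3 fits.

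Other transcripts of the same epithelia were counted beside the members. The visual cycle list is made of genes that regenerate, carry or take up retinoids. Its median log2 fold change after DZNep was 0.77, and 0.60 without replicate 2. None of its 10 genes was called lower and, against 1.02% of all genes, 4 were called higher. These were Rpe65, the retinoid isomerase (1.95, adjusted p = 0.0018), Rgr, a retinal opsin of RPE and Müller glia (2.01), Lrat, which esterifies retinol (1.61), and Stra6, the retinol uptake receptor (1.46). Rpe65 and Lrat were named after their values were seen. Of the abundant genes of the list, Rlbp1, a retinal carrier of RPE and Müller glia, had a log2 fold change of −0.47 (adjusted p = 0.0025), and Rdh10, a retinol dehydrogenase, was at 0.11 and did not pass. The summed level of the list was 852 to 997 CPM in controls and 850 to 923 CPM after DZNep. Slc24a5, a gene of melanin synthesis, was at 0.891 to 2.96 CPM in control retinas and far higher in sorted rods, made with another kit. Of the genes of melanin synthesis, 3 of 9 were called higher, Tyr, Oca2 and Slc24a5. Their sum was 29.5 to 75.2 CPM in controls, 45.3 CPM in DZNep replicate 1 and 210 CPM in replicate 2, and without replicate 2 only 1 of 9 was called and their median log2 fold change was 0.08. Of the lens list, 6 genes were tested and 2 were called, and their median log2 fold change was 1.47 with and −0.63 without replicate 2.

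Members and lists moved alike in some libraries and apart in others. On the mean log2 CPM relative to the controls of the same experiment, DZNep replicate 1 was shifted by 1.14 for the members, 0.85 for the visual cycle list, 0.08 for melanin synthesis and −0.17 for the lens. DZNep replicate 2 was shifted by 1.52, 0.97, 1.80 and 3.05 in the same order. The 3 UNC1999 retinas were shifted by 1.48 to 1.64 for the members, 0.96 to 1.14 for the visual cycle and 1.47 to 1.79 for melanin. In the same order, DZNep control replicate 3 was shifted by −0.54, −0.43 and −0.64, and UNC0642 control replicate 1 by −0.48, −0.26 and −0.75. UNC0642 treated replicate 1 was shifted by 0.37, 0.57 and −0.17. The rod list was shifted as well, by 1.16 and 1.24 after DZNep and by 0.85 to 1.28 after UNC1999. Of its 10 genes, 9 were called higher after DZNep, where 1.02% of all genes were. The part of attached epithelium or of surviving rods in the level of the members was not tested.

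**Figure D3:**
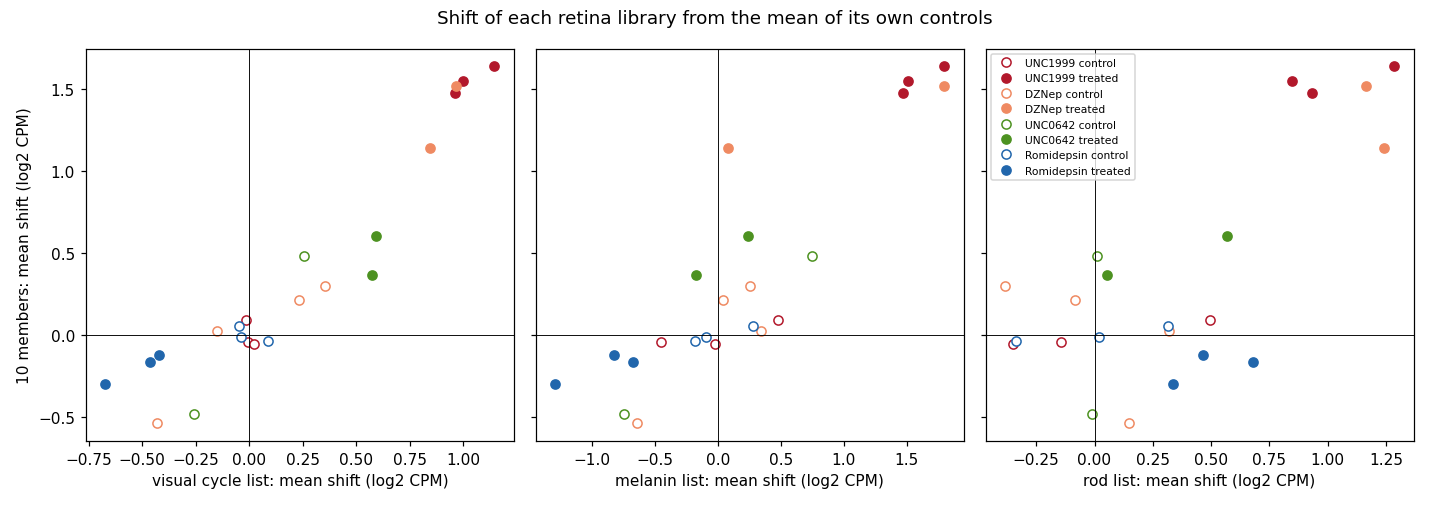
Mean shift in log2 CPM of each retina from the mean of its own controls, for the 10 members (y axis) against the visual cycle list, the melanin list and the rod list (x axes of the 3 panels). Open points are controls and filled points treated libraries. DZNep replicate 1 stands at 0.08 on the melanin axis and at 1.14 on the member axis, and the Romidepsin libraries, at −0.12 to −0.30 for the members, are above 0 on the rod axis.

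The other epithelial lists were set beside all 16477 genes tested after DZNep, of which 168 were called higher and 113 lower. Of the 28 other transporters and channels of RPE, ciliary epithelium and choroid plexus, 27 were tested and 1 was called higher after DZNep, Slc13a3, a carrier of dicarboxylates (log2 fold change 1.29, adjusted p = 0.0444, named after its value was seen). Their median log2 fold change was 0.09, and Bsg, the partner protein of monocarboxylate transporters, was at −0.09 and Atp1b1 at −0.19, neither passing. Of 23 other keratins and epithelial junction genes, 13 were tested. Of these, Cldn1 was called higher (1.78, with overlapping groups) and Cldn10 lower (−2.17), both claudins named after their values were seen, and the median was 0.01. Of 8 tested genes of the ciliary epithelium, 1 was called higher, Aqp1, a water channel (1.24, adjusted p = 0.00097). Aqp1 was also at 85.0 to 121 CPM in sorted rods, so it does not mark the epithelium alone in these libraries. The remaining lists had no gene called after DZNep by the quasi-likelihood test, the likelihood ratio test or DESeq2. At an unadjusted p under 0.05, where 36.5% of all genes lay, there were 4 of 4 tested RPE transcription factors, 5 of 9 genes of RPE secretion and phagocytosis, 1 of 10 stroma genes and 7 of 8 Müller glia genes. Otx2, a transcription factor of RPE and photoreceptors, had a log2 fold change of 0.27 (adjusted p = 0.0164) and Sox9, of RPE and Müller glia, one of −0.58. Apoe and Glul of the Müller glia list were at −0.79 and −0.37.

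After UNC0642, no member was called by edgeR's quasi-likelihood test, where 0% of 16321 genes were called. At an unadjusted p under 0.05 there were 2 of the members and 2407 of all genes. With the likelihood ratio test 23 genes were higher and 11 lower, with DESeq2 5 and 3, and no member was among them. Both treated libraries were above both controls for 5 members, where 27.2% of all genes were, and the median log2 fold change of the members was 0.55. Car12 was at 2.84 and 5.13 CPM in controls and at 7.59 and 8.50 CPM after UNC0642, without overlap. Its log2 fold change of 1.02 ± 0.29 had an unadjusted p of 0.0119 and an adjusted p of 0.299. Without the filter on low counts, Car12 was called (adjusted p = 0.0044). Krt18 was at 65.4 and 70.0 CPM in controls and 85.1 and 129 CPM after UNC0642 (log2 fold change 0.65 ± 0.18, adjusted p = 0.299). The 2 controls differed in the same direction for the whole group: all 10 members were higher in replicate 2 than in replicate 1, by 1.07-fold for Krt18 to 4.32-fold for Kcnj13, where 48.3% of all tested genes were higher. The sum of the melanin list was 31.1 and 78.6 CPM in these controls. The standard errors of the members ran from 0.18 to 0.62 on the log2 scale in this experiment.

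After Romidepsin, the members lay on both sides of their controls. No member was called by the quasi-likelihood test, where 0.561% of genes were called, but 4 members were below all controls in all 3 treated retinas, where 12.1% of genes were, and Krt18 was above them all, where 13.8% were. At an unadjusted p under 0.05 there were 4 members and 19.4% of all genes. The likelihood ratio test and DESeq2 each called 1 member, Slc6a20a. The median log2 fold change of the members was −0.20 and that of all genes −0.0088. Slc6a20a was at 3.15, 2.30 and 3.23 CPM in controls and at 1.16, 1.43 and 1.45 CPM after Romidepsin. Its treated values lay below the controls, with a log2 fold change of −1.10 ± 0.25 and an adjusted p of 0.0714, which ranged from 0.0046 to 0.218 over the alternatives. Ptgds was at 119, 122 and 166 CPM in controls and 77.7, 91.8 and 58.6 CPM after Romidepsin (log2 fold change −0.85 ± 0.19, adjusted p = 0.0710). Cpxm2 was at 7.36, 5.96 and 4.83 CPM in controls and 4.46, 2.97 and 2.23 CPM after Romidepsin (−0.92 ± 0.29, adjusted p = 0.131). Krt18 was at 92.0, 72.0 and 91.0 CPM in controls and 131, 180 and 148 CPM after Romidepsin (0.84 ± 0.15, adjusted p = 0.0505). Krt18 thus lay on the other side of its controls from Slc6a20a and Ptgds. Its partner Krt8 was at 0.937, 1.20 and 0.770 CPM in controls and 1.65, 1.65 and 1.18 CPM after Romidepsin, which overlapped. Beside the members, the visual cycle list was shifted by −0.42 to −0.67 and the melanin list by −0.67 to −1.29 in the 3 treated retinas, while the rod list was shifted by 0.34 to 0.68. Slc26a4, an anion exchanger singled out for its value, was the 1 called gene among the other transporters and fell by 3.14 on the log2 scale (adjusted p = 0.0422).

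DZNep and Romidepsin were measured in the same library series with separate controls, so the difference between both effects was tested in 1 fit over 16 retinas. Slc6a20a (difference of 2.28 ± 0.46 in log2 fold change, adjusted p = 0.0441) and Ptgds (2.30 ± 0.48, adjusted p = 0.0462) were called, where 0.129% of 17087 genes were called higher in this direction. The differences of Clic6 (1.99, adjusted p = 0.0725), Car12 (1.84, 0.0878), Cpxm2 (1.85, 0.0961) and Slc16a8 (1.60, 0.101) did not pass. The likelihood ratio test called these 4 as well. The 2 calls are close to the threshold: leaving out 1 library at a time left 0 to 4 members called, with none called without DZNep replicate 1, without DZNep replicate 2 or without any 1 of DZNep controls 1, 2 and 3, Romidepsin controls 1 and 3 and Romidepsin replicates 2 and 3. Krt18 had a difference of 0.09 ± 0.22 (adjusted p = 0.899), whose interval of 2 standard errors spans 0, and Best1 of −0.0043 ± 0.60. Between DZNep and UNC0642, none of the members was called by the quasi-likelihood test, where 0.0527% of genes were, 1 member, Krt8, was at an unadjusted p under 0.05, where 12.6% of all genes were, and the likelihood ratio test called no member. A difference of UNC1999 from the other inhibitors was not tested, since its values chose the members.

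In sorted rods 4 members, Car12, Krt8, Best1 and Slc16a8, had at most 13 counts in a library. Car12 had 1 count in the 4 libraries together (exact Poisson 95% interval 0.0253 to 5.57 counts, which covers counting error only), Krt8 had 9 and Best1 6, all 6 in treated replicate 2. Slc16a8 was at 0.117 to 0.675 CPM, Slc6a20a at 0.302 to 1.05 CPM and Cpxm2 at 0.504 to 1.47 CPM. Ptgds was at 2.60 to 3.53 CPM, where no retina was under 41.9 CPM. Of the 10 genes of the visual cycle list, Rpe65 and Ttr were at 0 in all 4 libraries and Lrat in 3, while the others were counted, among them Rlbp1 at 31.0 to 52.7 CPM, Rdh10 at 15.5 to 26.6 CPM and Stra6 at 3.74 to 5.20 CPM. The list summed to 70.1 to 91.4 CPM, where control retinas had 759 to 997 CPM. Of the 9 genes of the melanin list, Tyr, Mlana and Oca2 were at 0 in all 4 libraries. Slc24a5, singled out for its value, was at 92.0 to 127 CPM, where control retinas had 0.891 to 2.96 CPM. The kits differed and overlaps of Slc24a5 with other genes were not examined, so whether rods express it was not tested. Clic6 and Kcnj13 were not so low. Clic6 was at 4.44 to 8.28 CPM, and Kcnj13 at 1.30 to 4.33 CPM with its overlap with Gigyf2, which was at 186 to 248 CPM in sorted rods.

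Krt18 was the exception. It was at 325 and 581 CPM in the control rods and at 571 and 364 CPM in the treated rods, above all 22 retinas (65.4 to 277 CPM), with 2431 to 11003 counts per library. Per kilobase of exon it ranked between 53 and 97 among all genes in these libraries, while its partner Krt8 was at 0, 0, 0.267 and 0.705 CPM. The sorted rods were scaled apart from the retinas and made with another kit, so the size of the difference from the retinas carries that of the kits. Krt18, grouped here with epithelial genes, was more abundant in the sorted-rod libraries than the summed visual cycle list. Whether rods themselves or other cells in the sort carried it was not tested. In the control retinas, Krt18 was at 145 to 197 CPM in the 3 UNC1999 controls and at 65.4 to 105 CPM in the 9 others. It was the only member whose controls of both library series did not overlap, and series and experiment cannot be told apart here.

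**Figure D4:**
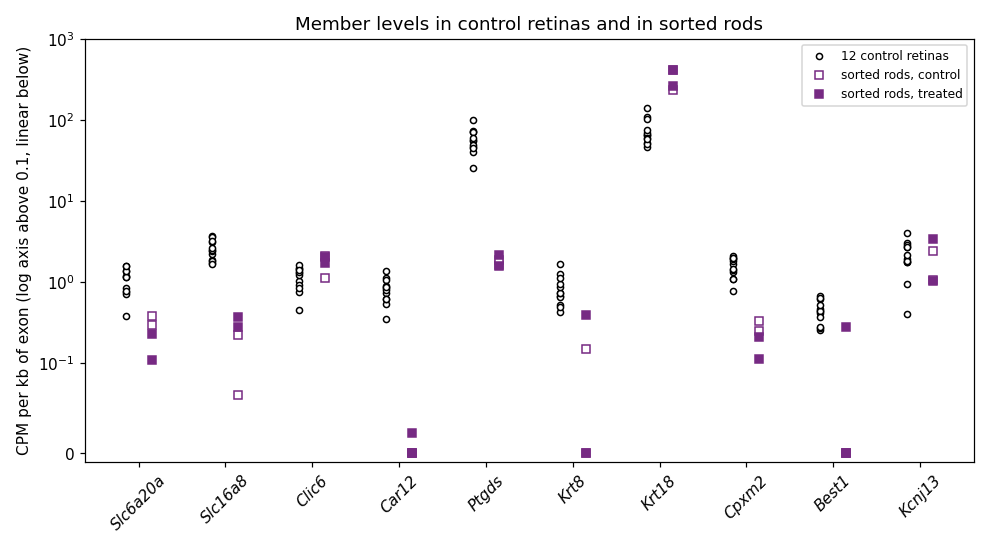
Level of each member (x axis) in CPM per kilobase of exon (y axis, logarithmic above 0.1 and linear below) in the 12 control retinas (circles) and in sorted rods (squares, open for control and filled for GSK2879552), scaled separately. Krt18 is the only member for which all sorted-rod values lie above all control retinas, and Car12, Krt8 and Best1 are at 0 in 2 or 3 of the 4 sorted-rod libraries.

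GSK2879552 was compared with its controls within the sorted rods. Of the 10 members, 6 passed the filter on low counts and Slc16a8, Car12, Krt8 and Best1 did not. None of the 6 was called by the quasi-likelihood test, where 0% of 14478 genes were called, and none was at an unadjusted p under 0.05. Over all genes, 711 were at an unadjusted p under 0.05, with the likelihood ratio test 44 were higher and 24 lower and with DESeq2 27 and 15, with no member among them. Krt18 had a log2 fold change of 0.05 ± 0.32 (adjusted p = 0.998), Clic6 of 0.24 ± 0.44, Kcnj13 of 0.36 ± 0.78 and Ptgds of 0.09 ± 0.55. Slc6a20a, with 6 and 18 counts in controls and 12 and 3 in treated rods, had −0.95 ± 0.95. The standard errors of the 6 members ran from 0.32 to 0.95 on the log2 scale.

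Over the 16 retinas of 1 library series, the members followed each other to different degrees. The levels of a member were correlated with the mean of the other members at a Pearson r of 0.61 to 0.90 for 8 of them, the highest being Clic6. Krt18 (r = 0.37) and Best1 (r = −0.21) stood outside. Krt18 was correlated with the mean of the rod list at r = 0.76 and with the visual cycle list at r = −0.08. Cpxm2 was correlated with the visual cycle list at 0.91 and with the rod list at 0.14. These 16 libraries share treatments and depth, so the values are descriptions without a test. The genes outside the group whose log2 levels were most like the mean of the members were Col8a2 (r = 0.875), Ermn (0.871), Gm98 (0.862), Rgr (0.862), Sema3c (0.850), Oca2 (0.842), Rad51c (0.828), Tyr (0.815), Stra6 (0.812) and Lysmd4 (0.801). Over 14930 genes with a mean of at least 1 CPM, the median r was 0.02 and the 99th percentile 0.60. Of these 10 genes, 4 were on the visual cycle list of 10 genes or the melanin list of 9, namely Rgr, Oca2, Tyr and Stra6. The 16 retinas include both DZNep libraries. Over the 9 control retinas alone, the r of these 4 genes was 0.62 to 0.88, and most of the first 10 genes were others. The UNC1999 libraries were not used for these correlations, but their values chose the members. In that experiment Rad51c (log2 fold change 0.24) and Lysmd4 (0.08) differed little. The others of the 10 genes named above ranged from 1.31 for Ermn to 2.09 for Rgr, with Col8a2, a collagen of basement membranes, at 1.95. Nothing follows from these rises, since the genes were matched to members picked for a rise there.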

How the data were processed

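RNA-seq of 26 libraries was used, 22 of whole retinas and 4 of sorted rods. According to the methods, the authors trimmed reads, aligned them with HISAT2 2.2.1 to NCBIM37 (Ensembl annotation) and counted them per gene with HTSeq 0.11.2. Whether reads were counted by strand is not given in the sources used here, although the retina kit keeps strand. The deposited values are raw counts of 37991 genes. The labels raise a number in the strain name and in the name of UNC1999 from library to library, and the titles were used for the groups.

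Ensembl IDs were matched to symbols with GENCODE M1, for 37205 genes, and the ID with the highest mean count was kept where IDs shared a symbol. Counts were tested with edgeR 4.0.16 in R 4.3.3, by the quasi-likelihood F test, for each treatment against the controls of its own experiment, after filterByExpr and TMM, with Benjamini-Hochberg adjustment over all genes tested. Standard errors are the log2 fold change divided by the root of the F statistic. Differences between effects were tested in a fit of 6 groups over 16 retinas of 1 library series (G-981). UNC1999 retinas were of another series. Tried beside it were the likelihood ratio test that the authors used, DESeq2 1.42.0, a block for the replicate number, RLE in place of TMM, all genes unfiltered or those with 10 counts in each library, calls without a fold threshold, 1 fit of all 22 retinas, and fits leaving out each library. On simulated counts, 198 to 200 of 200 changed genes were called in each of the 5 comparisons, with 0 to 2 false calls. The planted changes were larger than that of any member after DZNep and spared genes with low counts. Every gene was given the same small spread between libraries. The simulation therefore checked the code and does not measure how often changes like those of the members would be called.

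The members, the 11 other lists and the tests were chosen with earlier results of these data known. Named are all members, the 3 most abundant genes of each list in control retinas and the 10 genes most like the members over the 16 retinas, the latter from mean z-scores of log2 CPM (prior count 2). Some genes that this rule would name are not reported here. Where another gene is named, the text says that it was picked by its values. Of 132 list genes, 1 had no match. In 23 pairs of replicates the chi-square per gene was at least 3.89, so none was a copy of another. Promoters are RefSeq sequences, found for 9 of the 10 members. Python 3.11.15 with pandas 2.3.3 and matplotlib 3.10.9 was used for tables and plots.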

Additional observations from a re-analysis of the deposited data

Results flagged for a closer look

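Kcnj13 in control replicate 3 of the DZNep experiment, at 0.516 CPM, lay far below the other 3 controls, at 2.24 to 2.42 CPM, by Dixon's test for a group of 4. Chance flags about 1 in 20 groups in this way. The value rests on 11 counts, and the same library was the lowest of the 4 controls for 7 members.

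The effects of DZNep and Romidepsin differed for Slc6a20a, by 2.28 on the log2 scale, and for Ptgds, by 2.30, by the quasi-likelihood test of the difference in the fit over 16 retinas. Both calls rest on single libraries: without DZNep replicate 2, the retina with lens transcripts, the differences were 2.08 (adjusted p = 0.193) and 1.52 (adjusted p = 0.244), and neither was called without any 1 of 8 other libraries. With a block for the replicate number they were not called either (adjusted p = 0.130 and 0.217). By the same quasi-likelihood test both genes were called after DZNep and neither after Romidepsin, where the likelihood ratio test and DESeq2 called Slc6a20a.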

How the results depend on the processing

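Of the members called in each comparison, 6 after DZNep and 8 after UNC1999, counts stayed within 1.5 times under the other tests and filters. Leaving out 1 library gave 4 to 7 calls after DZNep (4 without treated replicate 1) and 1 to 8 after UNC1999, 1 without control replicate 2 and 1 without treated replicate 2, where the contrast is a description. After UNC0642, 1 member was called without a filter on low counts, Car12. After Romidepsin, 1 was called by the likelihood ratio test, DESeq2, without the filter and in the fit of all 22 retinas. Of DZNep less Romidepsin, 6 were called by the likelihood ratio test and 6 without the filter, and 0 to 4 when 1 library was left out. The causes were not tested.

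Replicate numbers marked no shared animal or litter in the labels, and the deviations of same-numbered libraries were correlated at −0.40 to 0.29, with no experiment of 3 pairs above 0.1 throughout. With a replicate block, 5 members were called after DZNep, 6 after UNC1999, 1 after UNC0642 (Car12), none after Romidepsin or in sorted rods and 0 in the difference of DZNep and Romidepsin. A crossed pairing for sorted rods, chosen after seeing the data, also gave 0 calls.

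Signs turned only in uncalled values, nearly all when 1 library was left out. In UNC0642, Slc6a20a ranged from −0.16 to 0.84 (−0.035 without treated replicate 1), Krt8 from −0.0087 to 1.34, Cpxm2 from −0.013 to 1.45, Best1 from −1.17 to 0.011 and Kcnj13 from −1.06 to 1.05. In Romidepsin, Slc16a8 ranged from −0.14 to 0.056 and Clic6 from −0.45 to 0.024. In sorted rods, Clic6 ranged from −0.17 to 0.73, Ptgds from −0.14 to 0.30, Krt18 from −0.31 to 0.53 and Kcnj13 from −0.73 to 1.03. In DZNep less Romidepsin, Krt18 ranged from −0.049 to 0.22 and Best1 from −0.25 to 0.14 (0.0024 by the likelihood ratio test), and in DZNep less UNC0642 Cpxm2 ranged from −0.50 to 0.94. Of the 10 genes most like the members by Pearson r, 3 were among the first 10 by Spearman's rho and 1 in the 9 control retinas alone. Low counts limit Best1 most.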
